A study of Mus musculus with 8 samples.

Results

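Genes that mark monocytes and dermal macrophages were followed in RNA sequencing libraries of sorted Langerhans cells, the antigen-presenting cells of the epidermis, from mouse ear skin. The genes are Lyz2, F13a1, Cd163, Mrc1, Ly6c2, Adgre1, Maf, Folr2, C1qa and Cd14. They were chosen by symbol from a list of monocyte and dermal macrophage genes, and all 10 of 10 were found among the 25247 genes of the count table. Earlier results of these data were known when they were chosen. The mice were EZH2 -/- (KO) or wild type (WT), all on a C57BL/6 background. EZH2 is the histone methyltransferase of Polycomb repressive complex 2. The Cre driver or cell type of the deletion, the deleted part, the age and the sex of the mice, and whether libraries came from separate animals or from pools, are not given in the sources used here. Live CD45+, MHC class II+, CD24+ and EpCAM+ cells that lacked Ly6G and CD103 were sorted from enzyme-digested epidermis, and the labels give a post-sort purity of 99.5% or above. Since it is not known whether libraries are separate animals, the p-values reflect library-to-library spread only, and part of it may be technical.

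The genotype of 4 of the 8 libraries is disputed within the labels. RMN038 and RMN039 are KO and RMN030 and RMN031 are WT both in the sample titles and in the sample descriptions. RMN032 and RMN033 are KO by title code and WT by description code, and RMN036 and RMN037 are WT by title code and KO by description code. Each comparison is therefore given in 3 readings, with none preferred: the undisputed libraries (2 KO against 2 WT), the title code (4 against 4) and the description code (4 against 4). By description code, the KO libraries are the run of later codes (036 to 039) and the WT libraries are the run of earlier codes (030 to 033), so genotype and run cannot be told apart. The same holds for the undisputed libraries. The title code puts 2 KO and 2 WT libraries into either run. What the runs of codes stand for is not stated.

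Monocytes enter the dermis from the blood, where Ly6C marks the inflammatory kind, and mature there into macrophages that clear debris and carry scavenger receptors. Langerhans cells share an embryonic macrophage origin and the need for signals through the colony-stimulating factor receptor Csf1r, but live in the epidermis, express langerin (Cd207) and migrate to lymph nodes as dendritic cells do. Several macrophage genes, among them Adgre1 and the C1q genes, are also known from Langerhans cells.

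The libraries held 11051402 to 18966195 counts. The langerin gene Cd207 was at 9706 to 11962 CPM (counts scaled to the library total), and Epcam at 558 to 672 CPM. Ezh2 was detected in every library, at 12.7 and 10.5 CPM in RMN038 and RMN039, 15.2 and 14.9 CPM in RMN032 and RMN033, 19.0 and 17.6 CPM in RMN036 and RMN037, and 15.7 and 22.4 CPM in RMN030 and RMN031. Ezh2 was thus lower in all 4 title-code KO libraries than in all 4 title-code WT libraries, and overlapped between the description-code groups. The closest libraries of the title-code groups were RMN032 at 15.2 CPM and RMN030 at 15.7 CPM. Of all genes tested, 2.94% had title-code groups that did not overlap. The counts cover the whole gene, so they do not test the deletion. T cell transcripts set RMN030 and RMN031 apart: the 11 T cell genes summed to 10.1 to 19.6 CPM in the other 6 libraries, against 204 and 182 CPM in RMN030 and RMN031. Some of the results that rest on these WT libraries are also given without them.

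Per length of exon, the 10 genes fell into a high and a low tier. Adgre1 had 110 ± 12.4 CPM per kilobase, C1qa 83.1 ± 29.8, Lyz2 75.2 ± 32.0 and Cd14 17.1 ± 3.8 CPM per kilobase (mean and SD over all 8 libraries). Below them stood F13a1 at 1.91 ± 1.38, Cd163 at 1.19 ± 0.92, Maf at 1.03 ± 0.38, Mrc1 at 0.867 ± 0.549, Folr2 at 0.843 ± 0.884 and Ly6c2 at 0.388 ± 0.179 CPM per kilobase. Neighbours from Adgre1 to Lyz2, and neighbours from F13a1 to Ly6c2, differed by less than the larger of their SDs over libraries. Cd14 was separated by more than an SD from its neighbours in the order. Genes that define macrophages outside the epidermis were near 0: the Fc receptor gene Fcgr1 (CD64) was at 0 to 0.781 CPM, Ms4a7 at 0 to 1.15 CPM, the efferocytosis receptor gene Mertk at 0.120 to 2.56 CPM, and Vsig4 at 0 to 1.28 CPM. Monocyte genes varied widely: the integrin gene Itgam was at 73.8 to 93.8 CPM, Ifitm3 at 18.8 to 29.1 CPM, S100a4 at 10.1 to 19.3 CPM and Ly6c1 at 3.60 to 11.4 CPM, while Ccr2 reached at most 2.88, Plac8 0.724, Cx3cr1 0.527 and Chil3 0.181 CPM.

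**Figure D1:**
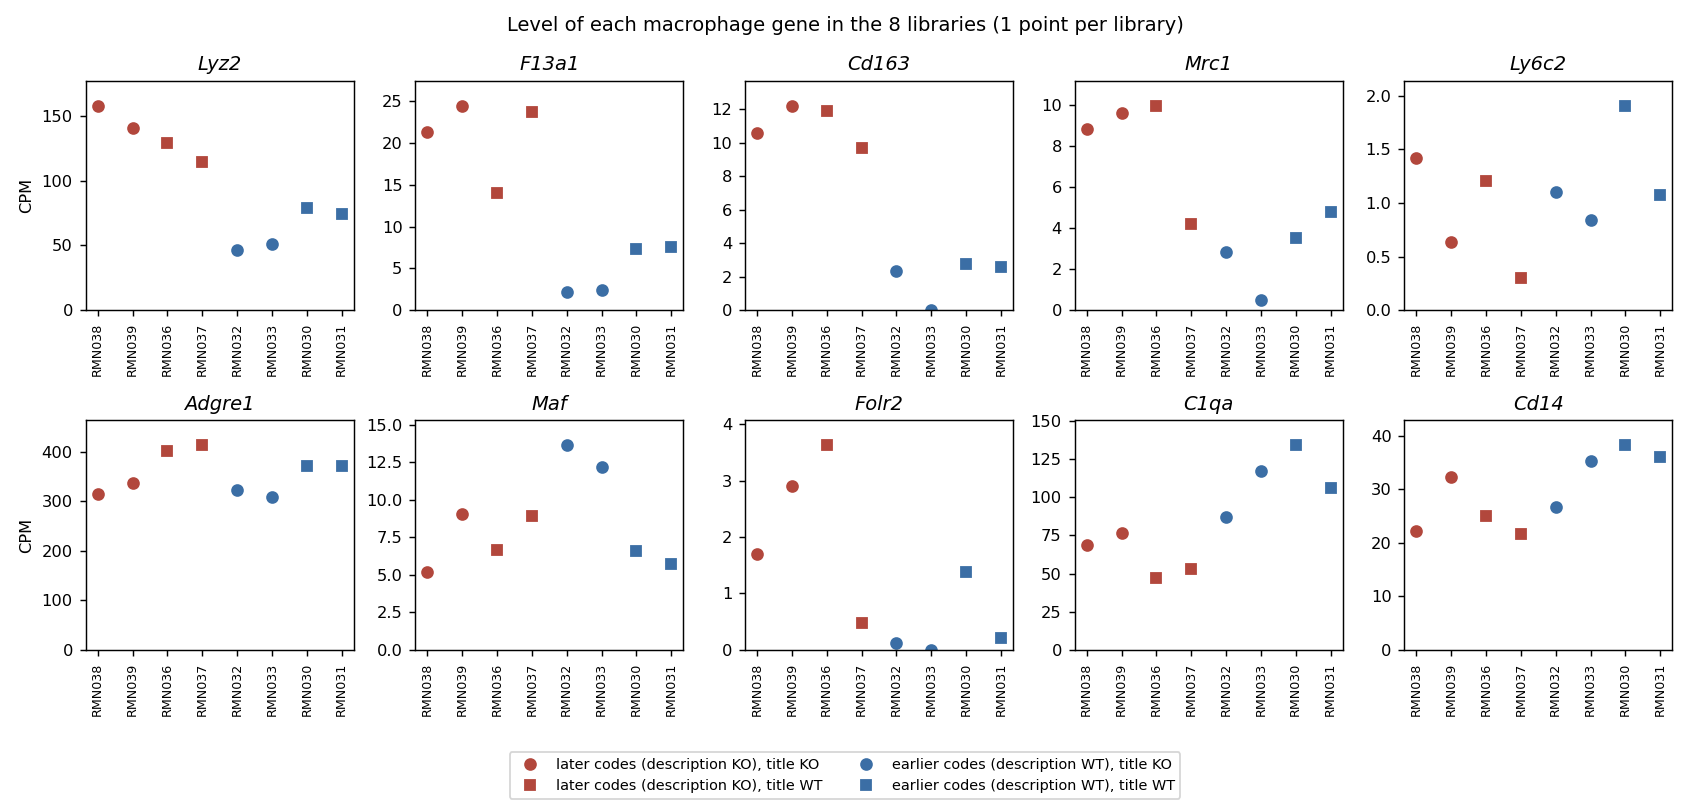
Level of the 10 macrophage genes in CPM (y axis, from 0) in each of the 8 libraries (x axis), 1 point per library. Colour marks the run of codes, which is also the description-code genotype, and shape the title-code genotype. Lyz2, F13a1 and Cd163 were higher, and C1qa lower, in every later-code library than in every earlier-code library, while Adgre1 split by the title code.

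Lyz2 (ENSMUSG00000069516, chromosome 10, 117277331 to 117282321, minus strand, GRCm38) encodes lysozyme M, the bacterial cell wall enzyme of macrophages and granulocytes. It was at 158 and 141 CPM in RMN038 and RMN039 (KO in both codes), 129 and 114 CPM in RMN036 and RMN037 (KO by description), 46.1 and 51.2 CPM in RMN032 and RMN033 (KO by title), and 78.7 and 74.4 CPM in RMN030 and RMN031 (WT in both). All 4 later-code libraries lay above all 4 earlier-code libraries. F13a1 (ENSMUSG00000039109, chromosome 13, 36867178 to 37050244, minus strand) encodes the A subunit of coagulation factor XIII, which cross-links fibrin and is made by monocytes and tissue macrophages. Its level was 21.2 and 24.4 CPM in RMN038 and RMN039, 13.98 and 23.6 CPM in RMN036 and RMN037, 2.21 and 2.43 CPM in RMN032 and RMN033, and 7.33 and 7.54 CPM in RMN030 and RMN031. Cd163 (ENSMUSG00000008845, chromosome 6, 124304656 to 124330527, plus strand) encodes the scavenger receptor for haemoglobin-haptoglobin complexes. It was at 10.6 and 12.2 CPM in RMN038 and RMN039, 11.9 and 9.71 CPM in RMN036 and RMN037, 2.33 and 0 CPM in RMN032 and RMN033, and 2.75 and 2.59 CPM in RMN030 and RMN031. The 0 in RMN033 is a level of up to 0.158 CPM at 3 counts, and covers counting error only. For F13a1 and Cd163 too, the runs of codes did not overlap.

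These 3 genes were the ones higher in KO in the undisputed libraries, so the sequences just upstream of their RefSeq starts (GRCm38.p6) are shown, written along the gene's own strand. Bases that the GENCODE annotation places inside a gene are left out, so the Lyz2 stretch is 201 bases and ends 49 bases before its RefSeq start, and the others are 250 bases and end at theirs. Capitals mark 4 motifs searched on both strands over the whole 250 bases before the RefSeq start: the PU.1 core GAGGAA, AP-1 TGANTCA, C/EBP TTNNGCAA and the MAF half-site TGCTGA. The Lyz2 stretch is chr10:117282322-117282522, minus strand, the F13a1 stretch chr13:37050245-37050494, minus strand, and the Cd163 stretch chr6:124304401-124304650, plus strand.

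Lyz2: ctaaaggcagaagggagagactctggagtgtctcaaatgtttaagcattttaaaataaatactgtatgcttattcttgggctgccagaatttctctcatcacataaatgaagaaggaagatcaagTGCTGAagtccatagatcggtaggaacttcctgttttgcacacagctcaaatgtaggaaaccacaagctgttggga

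F13a1: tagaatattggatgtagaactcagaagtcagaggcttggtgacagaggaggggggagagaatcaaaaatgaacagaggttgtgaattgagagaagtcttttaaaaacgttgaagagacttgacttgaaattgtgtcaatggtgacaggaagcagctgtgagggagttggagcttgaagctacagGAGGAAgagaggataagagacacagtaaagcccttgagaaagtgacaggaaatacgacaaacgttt

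Cd163: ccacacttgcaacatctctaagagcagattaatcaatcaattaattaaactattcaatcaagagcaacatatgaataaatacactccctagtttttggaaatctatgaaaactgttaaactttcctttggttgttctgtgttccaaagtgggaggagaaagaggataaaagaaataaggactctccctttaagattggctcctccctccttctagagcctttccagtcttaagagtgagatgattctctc

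Within the 250 bases before the start Lyz2 held 1 MAF half-site, F13a1 1 PU.1 core and Cd163 0 of the 4 motifs. Across 32851 windows of the same length in the RefSeq table, 23.3% held a PU.1 core, 6.75% an AP-1, 9.56% a C/EBP and 16.1% a MAF half-site. Mrc1 held 3 PU.1 cores, Ly6c2 held 1 and Folr2 held 1 MAF half-site. The promoter table used here matched 6 of the 10 genes.

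The undisputed libraries asked how KO differed from WT where both labels concur. Lyz2, F13a1 and Cd163 were higher in KO. Lyz2 averaged 149 ± 12.1 CPM in KO and 76.5 ± 3.0 CPM in WT (SD, n = 2 each), with a log2 fold change at 1.01 (SE 0.16, edgeR adjusted p = 0.0142). F13a1 averaged 22.8 ± 2.3 CPM in KO and 7.44 ± 0.15 CPM in WT (SD, n = 2 each), with a log2 fold change at 1.66 (SE 0.30, edgeR adjusted p = 0.0270). Cd163 averaged 11.4 ± 1.2 CPM in KO and 2.67 ± 0.12 CPM in WT (SD, n = 2 each), with a log2 fold change at 2.14 (SE 0.39, edgeR adjusted p = 0.0318). So 3 of the 10 genes passed higher, where 0.448% of the 14727 genes tested did, and 0 passed lower, where 0.346% did. Because the 10 genes were chosen with earlier results of these data known, these counts describe the set and do not test it. The exact permutation p was 0.333 for each of the 3, the smallest that 2 against 2 allows. The runs of codes coincide with genotype here, so the run and the genotype cannot be told apart. In sorted bulk cells, fewer cells of a type and less RNA per cell cannot be told apart either. In the same libraries the fibroblast genes summed to 199 and 129 CPM in KO and 62.8 and 46.1 CPM in WT, and the T cell genes to 10.1 and 13.7 CPM in KO and 204 and 182 CPM in WT, and the part of either in these 3 results was not tested. All 3 calls held with RLE size factors, no filter, 1 CPM in 2 libraries, DESeq2 and voom. Those fits called 0.835 to 1.9% of all genes tested, more than the 0.794% of the main fit. With a library left out in turn, the log2 fold change ran from 0.92 to 1.07 for Lyz2. It ran from 1.55 to 1.76 for F13a1 and from 2.02 to 2.24 for Cd163.

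In the same libraries C1qa (ENSMUSG00000036887, chromosome 4, 136895917 to 136898803, minus strand), which encodes a chain of the complement recognition molecule C1q, averaged 72.9 ± 5.7 CPM in KO and 120 ± 19.8 CPM in WT (SD, n = 2 each), with a log2 fold change at -0.68 (SE 0.18, edgeR adjusted p = 0.158). C1qa was called without a filter on low counts (edgeR adjusted p = 0.0155) and with DESeq2 (adjusted p = 0.0367). Those fits called 1.9 and 1.83% of all genes tested. Its log2 fold change was -0.48 without RMN030 and -0.87 without RMN031. Mrc1 (ENSMUSG00000026712, chromosome 2, 14229392 to 14332057, plus strand), the mannose receptor gene, was at 8.81 and 9.59 CPM in KO and at 3.51 and 4.79 CPM in WT, a log2 fold change of 1.19 (SE 0.39, edgeR adjusted p = 0.262). Folr2, a folate receptor gene of tissue-resident macrophages, was at 1.70 and 2.90 CPM in KO and at 1.37 and 0.215 CPM in WT, with a log2 fold change of 1.59 (SE 0.97) that was 3.42 without RMN030 and 0.75 without RMN031. Cd14, the lipopolysaccharide coreceptor gene, had a log2 fold change of -0.41 (SE 0.25), Adgre1 one of -0.14 (SE 0.13), Maf one of 0.26 (SE 0.42) and Ly6c2 one of -0.48 (SE 0.88). Groups did not overlap for 8 of the 10 genes, where 42.1% of all genes tested did not. Maf and Ly6c2 overlapped.

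By description code, Lyz2 and F13a1 were higher and C1qa was lower in KO, and the KO group is the later run. Lyz2 averaged 135 ± 18.3 CPM in KO and 62.6 ± 16.3 CPM in WT (SD, n = 4 each), with a log2 fold change at 1.15 (SE 0.18, edgeR adjusted p = 0.00456). F13a1 averaged 20.8 ± 4.8 CPM in KO and 4.88 ± 2.96 CPM in WT (SD, n = 4 each), with a log2 fold change at 2.14 (SE 0.39, edgeR adjusted p = 0.0119). C1qa averaged 61.5 ± 13.8 CPM in KO and 111 ± 19.8 CPM in WT (SD, n = 4 each), with a log2 fold change at -0.82 (SE 0.18, edgeR adjusted p = 0.0317). Without RMN030 and RMN031, the F13a1 log2 fold change was 3.22 (adjusted p = 8.5e-04) and that of Lyz2 was 1.53. Cd163 averaged 11.1 ± 1.2 CPM in KO and 1.92 ± 1.29 CPM in WT (SD, n = 4 each), with a log2 fold change at 2.59 (SE 0.62, edgeR adjusted p = 0.0510). It passed without RMN033, the library at 0, at an adjusted p of 0.00211. So 2 of the 10 genes passed higher, where 1.43% of the 14630 genes tested did, and 1 passed lower, where 0.595% did. Here too the counts describe genes chosen with earlier results of these data known. Lyz2, F13a1, Cd163 and C1qa had groups that did not overlap, where 8.82% of all genes tested had. The exact permutation p was 0.0286 for each of the 4, the smallest that 4 against 4 allows.

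The other members did not pass by description code. Mrc1 averaged 8.14 ± 2.67 CPM in KO and 2.91 ± 1.79 CPM in WT (SD, n = 4 each), with a log2 fold change at 1.52 (SE 0.50, edgeR adjusted p = 0.166). The log2 fold change was 2.42 (SE 0.99) for Folr2, -0.39 (SE 0.18) for Cd14, 0.14 (SE 0.11) for Adgre1, -0.31 (SE 0.31) for Maf and -0.42 (SE 0.63) for Ly6c2. The C1qa call rested on several libraries: its adjusted p was 0.0938, 0.0608, 0.0928, 0.0869, 0.0867 and 0.0587 without RMN030, RMN031, RMN033, RMN036, RMN037 and RMN038. Without RMN030 and RMN031 together it was 0.201.

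**Figure D2:**
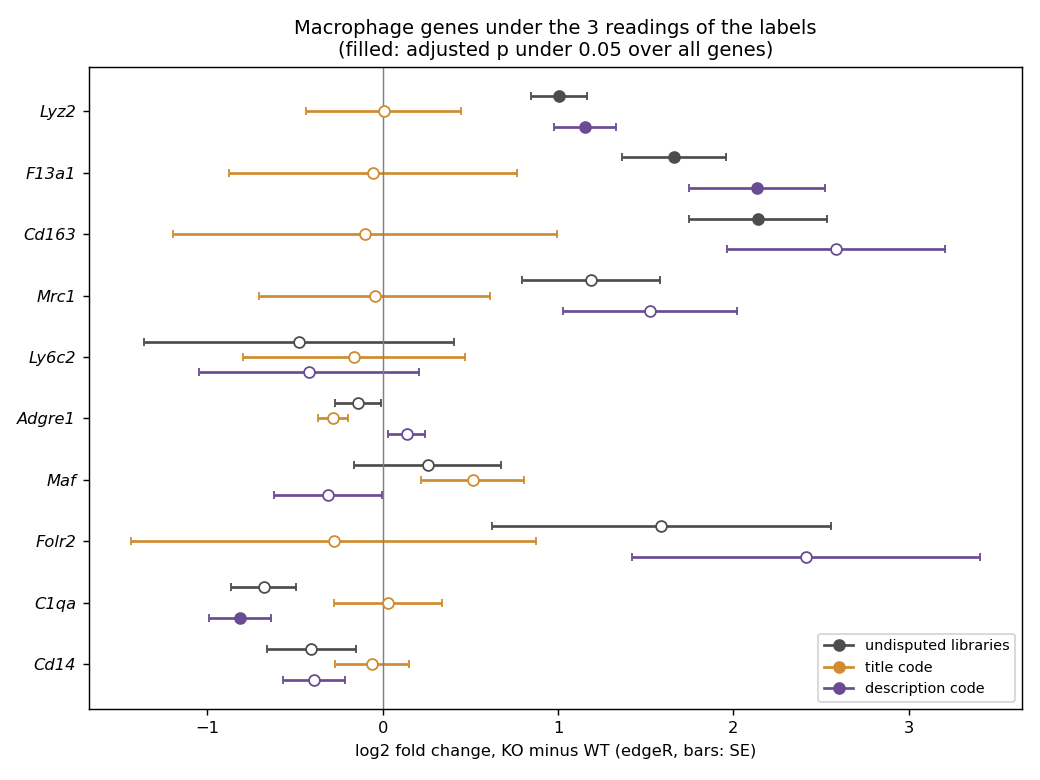
Log2 fold change, KO minus WT, of each gene (x axis) under the 3 readings of the labels, with the standard error from edgeR as bars. Filled points passed an adjusted p of 0.05 over all genes. The undisputed libraries and the description code place Lyz2, F13a1 and Cd163 to the right of 0, while all title-code points are open.

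By title code, 0 of the 10 genes passed, and 0% of the 14630 genes tested did in edgeR, with 672 at an unadjusted p under 0.05, 1 of them a member. DESeq2 and voom also called 0 of the 10. Adgre1 (ENSMUSG00000004730, chromosome 17, 57358691 to 57483527, plus strand), which encodes the adhesion receptor F4/80, was the member with the smallest p. It was at 315 and 338 CPM in RMN038 and RMN039 and at 323 and 309 CPM in RMN032 and RMN033, the title-code KO libraries. In the title-code WT libraries it was at 403 and 414 CPM (RMN036 and RMN037) and at 371 and 372 CPM (RMN030 and RMN031). The groups did not overlap (exact permutation p = 0.0286, n = 4 each, which is the lowest reachable here), where 2.94% of all genes tested did not. Adgre1 averaged 321 ± 12.4 CPM in KO and 390 ± 21.8 CPM in WT (SD, n = 4 each), with a log2 fold change at -0.28 (SE 0.09, edgeR adjusted p = 0.998). The title-code groups overlapped for the other 9 genes. Lyz2 averaged 98.9 ± 58.4 CPM in KO and 99.2 ± 26.8 CPM in WT (SD, n = 4 each), with a log2 fold change at 0.01 (SE 0.44). F13a1, Cd163 and Mrc1 had log2 fold changes of -0.06 (SE 0.82), -0.10 (SE 1.10) and -0.04 (SE 0.66). With the run as a covariate the log2 fold change was -0.18 (SE 0.18) for Lyz2, -0.61 (SE 0.37) for F13a1, -0.49 (SE 0.61) for Cd163 and -0.43 (SE 0.51) for Mrc1, and 0 of the 10 passed. With voom, F13a1, Cd163 and Mrc1 were at -1.19 (SE 0.71), -2.68 (SE 1.41) and -1.09 (SE 0.73). For C1qa the value was 0.03 (SE 0.31), against 0.79 (SE 0.20, edgeR adjusted p = 0.567) without RMN030 and RMN031.

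Within each run the title-code contrast sets 2 KO libraries against 2 WT libraries. In the later run 0% of 16146 genes passed, and in the earlier run 0.186% did, with none of the 10 members among them. Lyz2 had a log2 fold change of 0.32 (SE 0.14) in the later run, RMN038 and RMN039 minus RMN036 and RMN037, and of -0.70 (SE 0.14) in the earlier run, RMN032 and RMN033 minus RMN030 and RMN031. F13a1 had values of 0.31 (SE 0.29) in the later run and -1.72 (SE 0.33) in the earlier run. The difference between the runs was 1.02 for Lyz2 (SE 0.19, edgeR adjusted p = 0.175) and 2.03 for F13a1 (SE 0.44, edgeR adjusted p = 0.237), where 0.0186% of genes passed. Without a filter on low counts both passed (adjusted p = 0.00957 for Lyz2 and 0.0115 for F13a1), where 0.705% of 25247 genes did. Adgre1 had -0.30 (SE 0.09) in the later run and -0.28 (SE 0.09) in the earlier run, so its difference between the runs was -0.01 (SE 0.13). C1qa had 0.57 (SE 0.19) in the later run and -0.28 (SE 0.18) in the earlier run, and Maf, a transcription factor gene of resident macrophages, -0.11 (SE 0.35) and 1.03 (SE 0.35). In the earlier run the T cell sum also differed, at 11.1 and 12.5 CPM in RMN032 and RMN033 against 204 and 182 CPM in RMN030 and RMN031. The part of the T cell transcripts in the other values was not tested.

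**Figure D3:**
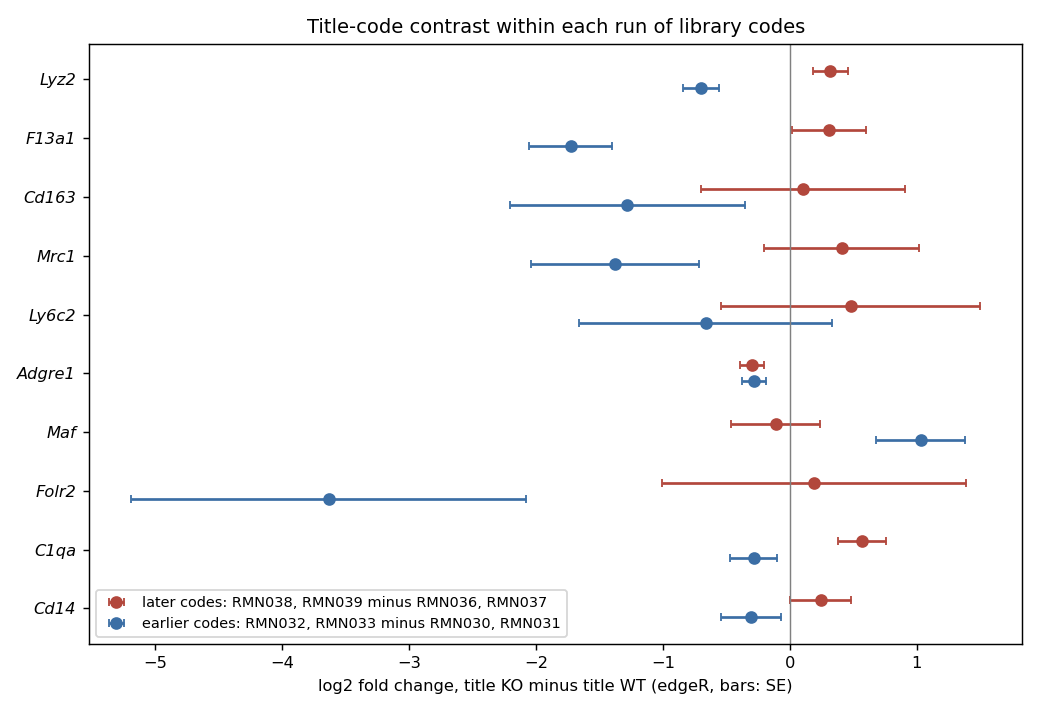
Title-code contrast, KO minus WT, of each gene within the later run and within the earlier run (x axis: log2 fold change, bars: SE from edgeR). Lyz2 and F13a1 sit at 0.32 and 0.31 in the later run and at -0.70 and -1.72 in the earlier run, while Adgre1 is near -0.3 in both.

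Maf was highest in RMN032 and RMN033, at 13.7 and 12.2 CPM, and at 5.19 to 9.05 CPM in the other 6 libraries. Mrc1 was lowest in RMN033, at 0.527 CPM, and highest in RMN036, at 9.95 CPM. Folr2 was at 0 CPM in RMN033 and 0.123 CPM in RMN032, both in the earlier run, and reached 3.63 CPM in RMN036. Ly6c2, a marker of inflammatory monocytes, stayed between 0.300 and 1.91 CPM in every library, with 129 counts over the 8 libraries. Its transcripts share 13.9% of their 50-base windows with those of Ly6c1, and reads of the 2 genes may be split. Folr2 and the antisense gene Gm10602 overlap in their exons, and since the strand setting is not given, their reads cannot be told apart.

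Lysozyme reads can come from Lyz1, the neighbouring paralog, and 15.4% of the 50-base windows of Lyz2 occur in Lyz1. Lyz1 was at 26.8 and 22.0 CPM in RMN038 and RMN039, 19.2 and 16.4 CPM in RMN036 and RMN037, 5.33 and 6.33 CPM in RMN032 and RMN033, and 8.93 and 9.86 CPM in RMN030 and RMN031. The count of Lyz2 was 5.89 to 6.96 times that of Lyz1 in the later run and 7.55 to 8.80 times that of Lyz1 in the earlier run. The 3 C1q chains, whose genes lie beside each other, summed to 83.6 to 131 CPM in the later run and 144 to 215 CPM in the earlier run. C1qa was 2.14 to 3.24 times C1qb across the libraries.

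Across the 8 libraries 45 pairs of the 10 genes were compared on log2(CPM + 1). For the 6 pairs among Lyz2, F13a1, Cd163 and C1qa, both genes separate the runs, so no pooled correlation is given. After each run's mean was taken off, r was 0.81 between Lyz2 and F13a1, 0.62 between Lyz2 and C1qa, 0.54 between F13a1 and C1qa, 0.51 between F13a1 and Cd163, 0.47 between Lyz2 and Cd163 and -0.08 between Cd163 and C1qa, as descriptions over 8 libraries. The Lyz2 and F13a1 value came from the earlier run, with r of 0.06 over the 4 later libraries and 0.99 over the 4 earlier ones, and was 0.38 on the linear CPM scale. Of the other 39 pairs, 7 had an unadjusted Pearson permutation p under 0.05 and 0 passed after adjustment, the smallest adjusted p being 0.0880. That pair was Cd163 and Mrc1, with r of 0.93 (exact permutation p = 0.00226) and rho of 0.90 (exact permutation p = 0.00456, n = 8), and an r of 0.79 without the 2 libraries farthest from the median of Cd163. Centred within runs, its r was 0.88. Cd163 and C1qa each separate the runs, and the permutations moved libraries across runs. The permutation p-values of their pairs here therefore also hold differences between runs. Folr2 and Cd163 had rho of 0.95 (exact permutation p = 0.00114, adjusted p = 0.0445, n = 8) and r of 0.77 (exact permutation p = 0.0206), with an r of 0.66 without the 2 libraries farthest from the median of Cd163 and 0.45 centred within runs. C1qa and Cd14 had r of 0.86 (exact permutation p = 0.0101) and rho of 0.88 (exact permutation p = 0.00724, adjusted p = 0.0989 for r, n = 8), an r of 0.87 without the 2 libraries farthest from the median of C1qa, and 0.68 centred within runs.

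**Figure D4:**
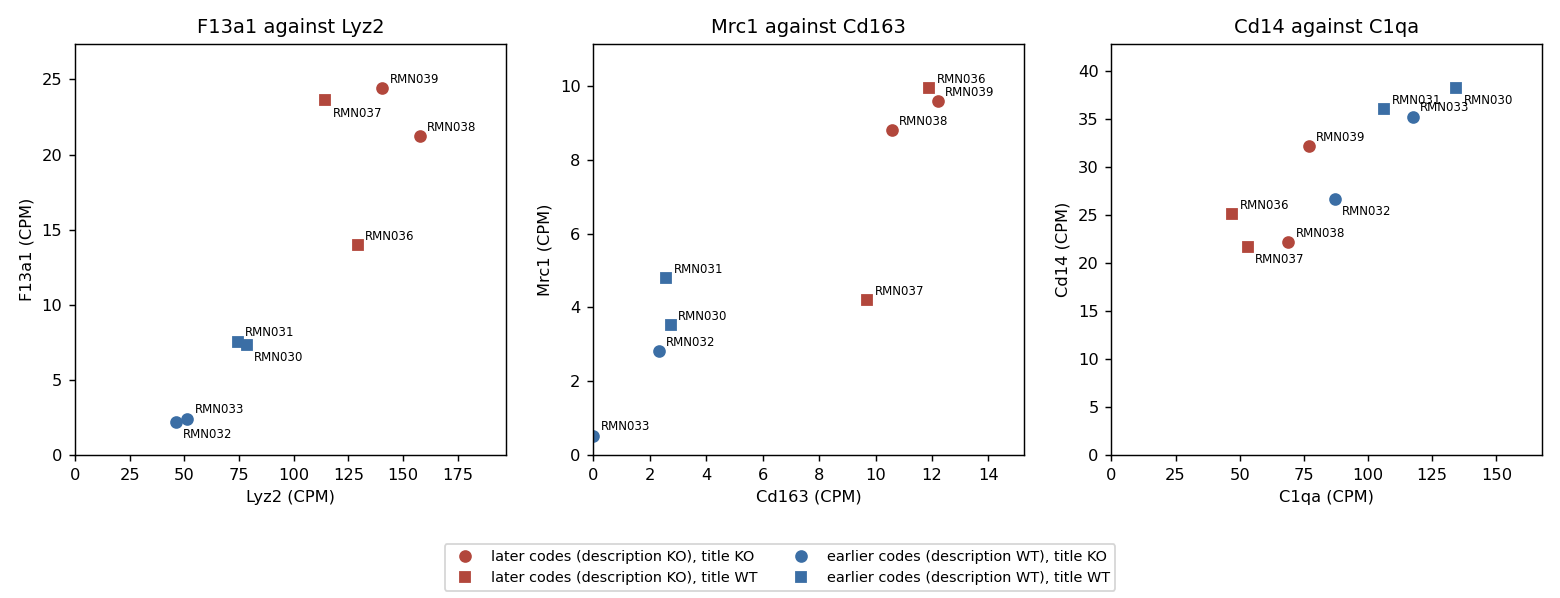
CPM of F13a1 against Lyz2, Mrc1 against Cd163 and Cd14 against C1qa in the 8 libraries, with each point named by its library. Colour marks the run of codes and shape the title-code genotype. The later and earlier libraries stand in separate clouds for Lyz2 and F13a1, and RMN033 is the lowest for Cd163 and Mrc1.

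Among 11983 protein-coding genes, the patterns most like those of the 3 leading genes were found by Pearson r of log2(CPM + 1) over the 8 libraries, as a description. Lyz2 was closest to Lyz1 (r = 0.99), with which it may share reads, then Zfp622 (0.98), and Clptm1l and Abi3bp (0.97 each). F13a1 was closest to the chemokine gene Ccl9 (r = 0.99), then the MAP kinase phosphatase gene Dusp5 (0.97), Clptm1l, Ppp2ca and Map7d1 (0.96 each). Cd163 was closest to the keratin gene Krt1 (r = 0.98), then Sntb2, Myoc and Ybx1 (0.97 each) and Pip4p1 (0.96). Like the 3 genes themselves, all of these genes had higher CPM in every later-code library than in every earlier-code library. They were picked by likeness to genes that separate the runs, so this split follows largely from the choice. The values centred within runs come from the same libraries that picked the genes. Centred within runs, r was lower for each, at 0.96, 0.87, 0.83 and 0.79 for Lyz1, Zfp622, Clptm1l and Abi3bp with Lyz2. It was 0.96 for Ccl9 and 0.82 to 0.89 for the other 4 with F13a1, and 0.90 for Krt1 and 0.82 to 0.87 for the other 4 with Cd163. Ccl9 was at 5.85 to 8.87 CPM in the later run and at 0.490 to 2.37 CPM in the earlier run.

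Genes of the same cells and pathways, members among them, were counted from lists. These lists were also chosen with earlier results of these data known, so the counts are descriptions. Over all genes tested, 0.448% passed higher and 0.346% lower in the undisputed libraries. By description code 1.43% passed higher and 0.595% lower. Of 12 tested monocyte genes, 2 were higher and 1 lower in KO in the undisputed libraries and 3 higher and 1 lower by description code (median log2 fold change -0.16 and 0.08, against -0.0016 and -0.0085 over all genes tested). Lyz2 and F13a1, both members, were the 2 higher monocyte genes in the undisputed libraries, and were higher by description code too. The lower gene was Nr4a1, an immediate early gene that patrolling monocytes need. Its log2 fold change was -0.80 (SE 0.09, edgeR adjusted p = 2.9e-04) by description code. The third higher gene by description code was Ccr2, the receptor of the monocyte chemokine CCL2 (edgeR adjusted p = 0.0158), at 0.710 to 2.88 CPM in KO and at 0 to 0.108 CPM in WT. Of tissue macrophage genes, 3 of 28 were higher and 0 lower in the undisputed libraries, and 3 of 26 were higher and 1 lower by description code, with median log2 fold changes of 0.29 and 0.25. In the undisputed libraries the 3 higher genes were the members Lyz2, F13a1 and Cd163. By description code they were Lyz2, Lyz1 (log2 fold change 1.51, SE 0.25, edgeR adjusted p = 0.00598) and F13a1, and the lower gene was C1qa. Lyz1 shares 16.1% of its 50-base windows with Lyz2, so the calls of these paralogs may not be independent.

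Of 11 tested genes of coagulation and fibrin handling, 3 were higher in KO in the undisputed libraries and by description code: F13a1, the tissue factor gene F3 and the protease inhibitor gene Serpinb2. F3 was at 71.6 to 108 CPM in KO and 24.5 to 49.1 CPM in WT by description code, with a log2 fold change of 1.42 (SE 0.21, edgeR adjusted p = 0.00390). Of 10 genes of haemoglobin scavenging and haem iron handling, Cd163 was the 1 higher in the undisputed libraries. By description code 1 was lower, the haemopexin receptor gene Lrp1 (log2 fold change -0.54, SE 0.10, edgeR adjusted p = 0.0117). The haem oxygenase gene Hmox1 had a log2 fold change of 1.56 (SE 0.39, edgeR adjusted p = 0.0574) there, and was at 9.53 to 24.6 CPM in KO and 3.66 to 9.77 CPM in WT. Of phagocytic and scavenger receptor genes, Cd36 was higher in KO by description code (1 of 14, log2 fold change 1.61, SE 0.38, edgeR adjusted p = 0.0468), and 0 of 14 passed in the undisputed libraries. Of lipopolysaccharide recognition genes, 0 of 13 by description code and 0 of 11 in the undisputed libraries passed in edgeR, with 2 and 0 at an unadjusted p under 0.05. By title code, 0 genes of these lists passed in edgeR.

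Marker sums of several other cell types split by run, and those of others did not. The mast cell proteases Mcpt4, Cma1, Tpsb2 and Cpa3 summed to 23.3 to 47.4 CPM in the later run and 2.16 to 5.76 CPM in the earlier run, and 4 of 5 tested mast cell genes were higher by description code. With Kit, the most abundant mast cell gene of the list at 18.2 to 30.9 CPM in the later run and 26.2 to 37.3 CPM in the earlier run, the whole list of 7 summed to 47.6 to 66.4 CPM in the later run and 31.1 to 43.4 CPM in the earlier run. The 7 fibroblast genes summed to 119 to 199 CPM in the later run and 37.0 to 62.8 CPM in the earlier run, with 4 of 6 tested higher. The haemoglobin genes summed to 541 to 1305 CPM in the later run and 119 to 218 CPM in the earlier run. The mitochondrial share of counts was 3.76 to 4.03% in the later run and 1.02 to 1.87% in the earlier run. Keratinocyte genes summed to 12273 to 14213 CPM in the later run and 11970 to 15384 CPM in the earlier run. Of these sums Krt14 gave 6463 to 8876 CPM over all libraries. Single keratinocyte genes did split by run. Of 8 tested, 2 were higher by description code, Krt1 and Krt79, and 2 lower, Krt15 and Trp63. Krt1 was at or above 81.6 CPM in the later run and at or below 59.5 CPM in the earlier run. Krt15 was at or below 1120 CPM in the later run and at or above 1337 CPM in the earlier run. Endothelial genes summed to 10.1 to 48.7 CPM in the later run and 16.1 to 27.0 CPM in the earlier run, and dermal dendritic cell genes to 269 to 340 CPM in the later run and 281 to 351 CPM in the earlier run. Neutrophil genes stayed at a sum of at most 2.27 CPM, and 0 of 13 Langerhans cell genes passed in edgeR in any reading, with 4, 3 and 3 at an unadjusted p under 0.05 in the undisputed libraries, by title code and by description code. Lyz2, F13a1, Cd163 and Mrc1 together summed to 152 to 198 CPM in the later run and 53.5 to 92.2 CPM in the earlier run. The part of these other cells and of the mitochondrial share in the macrophage gene values was not tested.

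**Figure D5:**
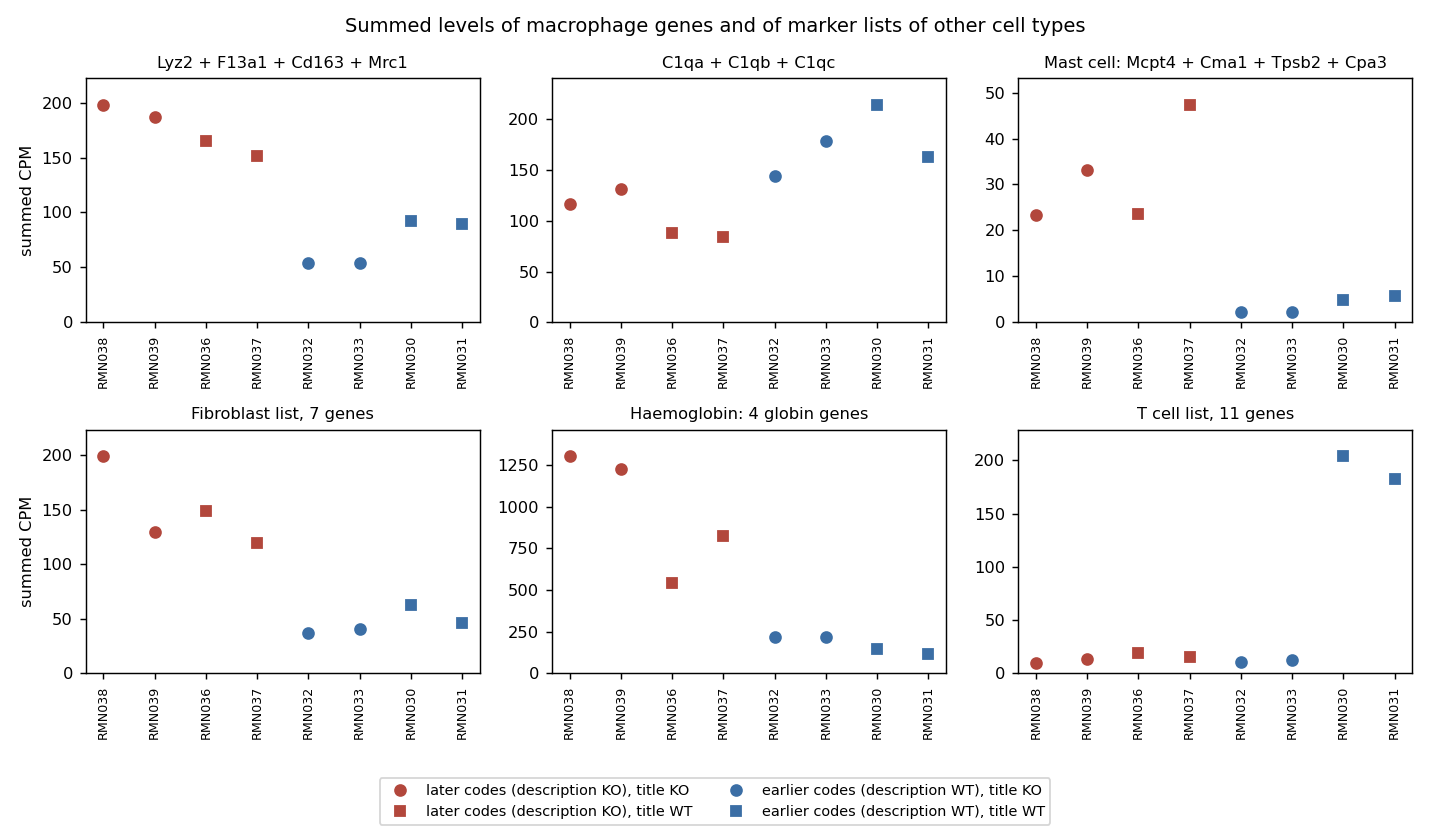
Summed CPM (y axis, from 0) of the macrophage genes and of marker sets of other cell types in each library (x axis), 1 point per library. Mast cell, fibroblast and haemoglobin sums are higher in every later-code library, the C1q sum is lower there, and the T cell sum is high in RMN030 and RMN031.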

How the data were processed

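Bulk RNA was sequenced from 8 libraries of sorted Langerhans cells. The submitters' processing notes name STAR 2.5.2b, featureCounts 1.5.0 and the build GRCm38 (mm10). The deposited values are whole, unnormalized read counts per gene. The strand setting was not given in the sources used here. Among counts from 1 to 20, 60.1% were even, which may mean that each mate was counted, and counting errors would then be understated. Of the versioned Ensembl identifiers, 25080 matched a symbol and 167 did not. CPM is counts over the column total. KO minus WT was tested in R 4.3.3 by the quasi-likelihood test of edgeR 4.0.16 (robust, TMM, genes kept by filterByExpr), with p-values adjusted by Benjamini-Hochberg over all genes tested and a threshold of 0.05. SE values are of log2 fold changes, derived from the F statistic. The method was tested on simulated data.

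Exact permutation tests were two-sided. Alternatives were RLE size factors, no filter, 1 CPM in 2 libraries, DESeq2 1.42.0, the replicate number as a block, leaving out each library, leaving out RMN030 and RMN031, limma 3.58.1 voom with weights per library, and the code run as a covariate. The title genotype as a covariate was chosen after seeing the data. A library left out of the undisputed fit leaves a lone library, taken to vary as its opposite group does. The members and lists were chosen with earlier results of these data known. Genes named were the members, up to 4 per list with the smallest p, and the 5 most alike for each of Lyz2, F13a1 and Cd163, and some of these are not reported here.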

Additional observations from a re-analysis of the deposited data

Results flagged for a closer look

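Within groups of 4 libraries, 2 of 40 member-by-group sets held a library far from the others, as chance gives about 1 in 20. Cd163 was at 0 CPM in RMN033, WT by description code, against 2.33 to 2.75 CPM in the other 3 libraries of that group. Folr2 was at 1.37 CPM in RMN030, WT by description code, against 0 to 0.215 CPM in the other 3 libraries.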

How the results depend on the processing

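The number of members called was 3 or 4 in the undisputed libraries with no library left out. Over all alternatives it was 0 by title code and 2 to 4 by description code. Of all genes tested, these fits called 0.794 to 1.9%, 0 to 0.0953% and 0.933 to 4.56%, in the same order. Leaving out a library gave 0 members by title code and 2 to 3 by description code. Of all genes tested, 0% and 0.933 to 1.44% passed in those fits. The labels number the libraries within each genotype. Deviations from the group means correlated between same-numbered libraries at r of 0.02 to 0.16 by title code and -0.01 to 0.04 by description code. The title-code pairs lie within the same run. Differently numbered libraries were not compared, so whether the numbers pair the libraries was not tested. With the replicate number as a block, 0 members passed by title code and 2 by description code, where C1qa lost its call (adjusted p = 0.0712). The undisputed groups share no replicate number. For the difference between runs in the title-code contrast, 0 members passed, and 2 passed without a filter on low counts, Lyz2 and F13a1, where 178 of 25247 genes passed, against 3 of 16146 with the filter. On the linear CPM scale 2 pairs passed by Pearson r, Cd163 with Mrc1 and Mrc1 with Folr2, against 0 by Pearson r on the log scale, where 1 passed by rho. By description code, Cd163 passed with voom (log2 fold change 4.72, adjusted p = 0.0258) and with the title genotype as a covariate (adjusted p = 0.0492). Over all genes, by description code, DESeq2 called 704 and edgeR 296, the fits without a library 140 to 219, and the replicate block 174. In the undisputed libraries edgeR called 117 genes, DESeq2 293 and no filter 440. By title code, DESeq2 called 24 and no filter 1. Signs turned by title code, with no call: with voom, Lyz2 (-0.39), Ly6c2 (0.16) and Cd14 (0.0047); with the replicate block and with the run as a covariate, Lyz2 (-0.18 each); without RMN030 and RMN031, Lyz2 (-0.29), Ly6c2 (0.40) and Cd14 (0.31). With a library left out, title-code log2 fold changes ran from -0.33 to 0.25 for Lyz2, -0.61 to 0.39 for F13a1, -0.66 to 0.33 for Cd163, -0.48 to 0.39 for Mrc1, -0.49 to 0.22 for Ly6c2, -1.24 to 0.78 for Folr2, -0.17 to 0.35 for C1qa and -0.20 to 0.081 for Cd14. Maf in the undisputed libraries ran from -0.21 to 0.60. Ly6c2 and Folr2, at 129 and 142 counts in all, are limited by depth. The cause of these shifts was not tested.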
